A study of Mus musculus with 13 samples.

Results

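The genes described here are 10 genes of iron sensing and of the response to bone morphogenetic proteins (BMPs), taken by symbol from the 35013 rows of the deposited table of estimated counts. They are the iron regulatory proteins Aco1 and Ireb2, their regulator Fbxl5, the transferrin sensor Tfr2, the ligand Bmp6, the inhibitory SMADs Smad6 and Smad7, and the inhibitors of DNA binding Id1, Id2 and Id3. All 10 were kept by the filter on low counts, which kept 16468 genes. The study set a genetic and a parenteral model of iron loading of the kidney beside controls without iron injections. Libraries labelled Spns1 KO (n = 4) came from mice with Megalin3'Cre-Ert, 2 floxed Spns1 alleles (Spns1 flox/flox) and Uprt flox/+, in which tamoxifen-induced Cre deletes Spns1, a lysosomal transporter. Libraries labelled WT (n = 5) carried the same Cre driver and Uprt allele with Spns1 flox/+, so that by the methods the controls had 1 floxed Spns1 allele, although the labels call this genotype Spns1 WT. The same Cre can act on that allele, so by design Spns1 KO and WT differ as 2 floxed alleles against 1. Libraries labelled FeO (n = 4) came from mice of the control genotype injected with iron (12 mg daily over 3 days, with the kidneys taken 1 week after). All mice were female, and ages are not given in the sources used here. By the methods, mice of both genotypes received tamoxifen in parallel. In all groups Cre was driven from the megalin (Lrp2) locus, which is active in proximal tubules, and switched on uracil phosphoribosyltransferase, so that 4-thiouracil would tag RNA newly made in those cells for capture. The labels do not say that each library was a separate mouse, so p-values measure the spread between libraries.

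Aco1 and Ireb2 encode RNA-binding proteins that, when cells lack iron, bind stem-loops in the mRNAs of ferritin, the transferrin receptor and other iron genes. With iron present, ACO1 takes up an iron-sulfur cluster and works as cytosolic aconitase, whereas IREB2 is degraded through a ubiquitin ligase whose substrate receptor is the iron-binding protein FBXL5. BMP6 is the ligand through which iron loading of the liver raises hepcidin: it acts through BMP receptors, SMAD1, SMAD5 and SMAD9, and their partner SMAD4, and among the direct targets of this route are Smad6, Smad7 and the Id genes. The control of ACO1 and IREB2 by iron acts on the proteins, which these data do not measure.

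Total counts per library ranged from 23068023 to 71296474. The targeted gene, Spns1, did not separate the groups: its log2 fold change in Spns1 KO was -0.31 (adjusted p = 0.225, standard error 0.18), and the library labelled Spns1 KO 4, at 59 CPM (counts relative to the library size, with TMM factors), lay inside the WT range of 39.2 to 62.9 CPM. A count over the whole gene also takes reads from exons outside the deleted part, so it checks the labels only in part. Directions given below are therefore those of the labels, and values without the library labelled Spns1 KO 4 are given for the Id genes. The 10 proximal tubule markers were detected in every library, and their summed level was 7115 to 7979 CPM in Spns1 KO, 3692 to 5062 CPM in WT and 2392 to 5220 CPM in FeO. Markers of other kidney cells were captured too. Thick ascending limb markers summed to 2180 to 2981 CPM in Spns1 KO, 1300 to 2767 CPM in WT and 1481 to 3803 CPM in FeO. They exceeded the proximal tubule sum in FeO 1 (3359 against 2392 CPM) and FeO 4 (3803 against 3421 CPM). Collecting duct markers summed to 286 to 437 CPM, 324 to 558 CPM and 484 to 1435 CPM in the same order, and 5 of 6 were upregulated in FeO. Id genes are known to be expressed in endothelium. The 10 endothelial markers summed to 443 to 507 CPM in Spns1 KO, 286 to 352 CPM in WT and 268 to 503 CPM in FeO, and 5 of them were upregulated in Spns1 KO. The 6 fibroblast and pericyte markers summed to 158 to 203 CPM, 93.2 to 138 CPM and 72.8 to 160 CPM in the same order, and 3 were upregulated in Spns1 KO. No listed endothelial, fibroblast or pericyte marker was at 0. The 5 endothelial markers upregulated were Plvap (log2 fold change 1.8), Egfl7 (1.47), Eng (0.95), Tie1 (0.69) and Emcn (0.61). Tek (0.66) was not called, and Pecam1 (0.04), Cdh5 (-0.03), Kdr (0.07) and Flt1 (-0.01) hardly differed from WT. Markers of blood and immune cells were low but also higher in every library labelled Spns1 KO than in every WT library. Red cell and platelet markers summed to 48.5 to 164 CPM in Spns1 KO, 9.36 to 35.4 CPM in WT and 26.3 to 235 CPM in FeO, and 4 of the 4 tested were upregulated in both models. Lymphocyte and plasma cell markers summed to 21.2 to 73.5 CPM, 9.95 to 18.4 CPM and 20.8 to 73.9 CPM in the same order, and macrophage markers to 66.4 to 80.7 CPM, 47.5 to 57.4 CPM and 75.1 to 97.4 CPM. In such bulk libraries, more cells of a type and more RNA per cell cannot be told apart.

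**Figure D1:**
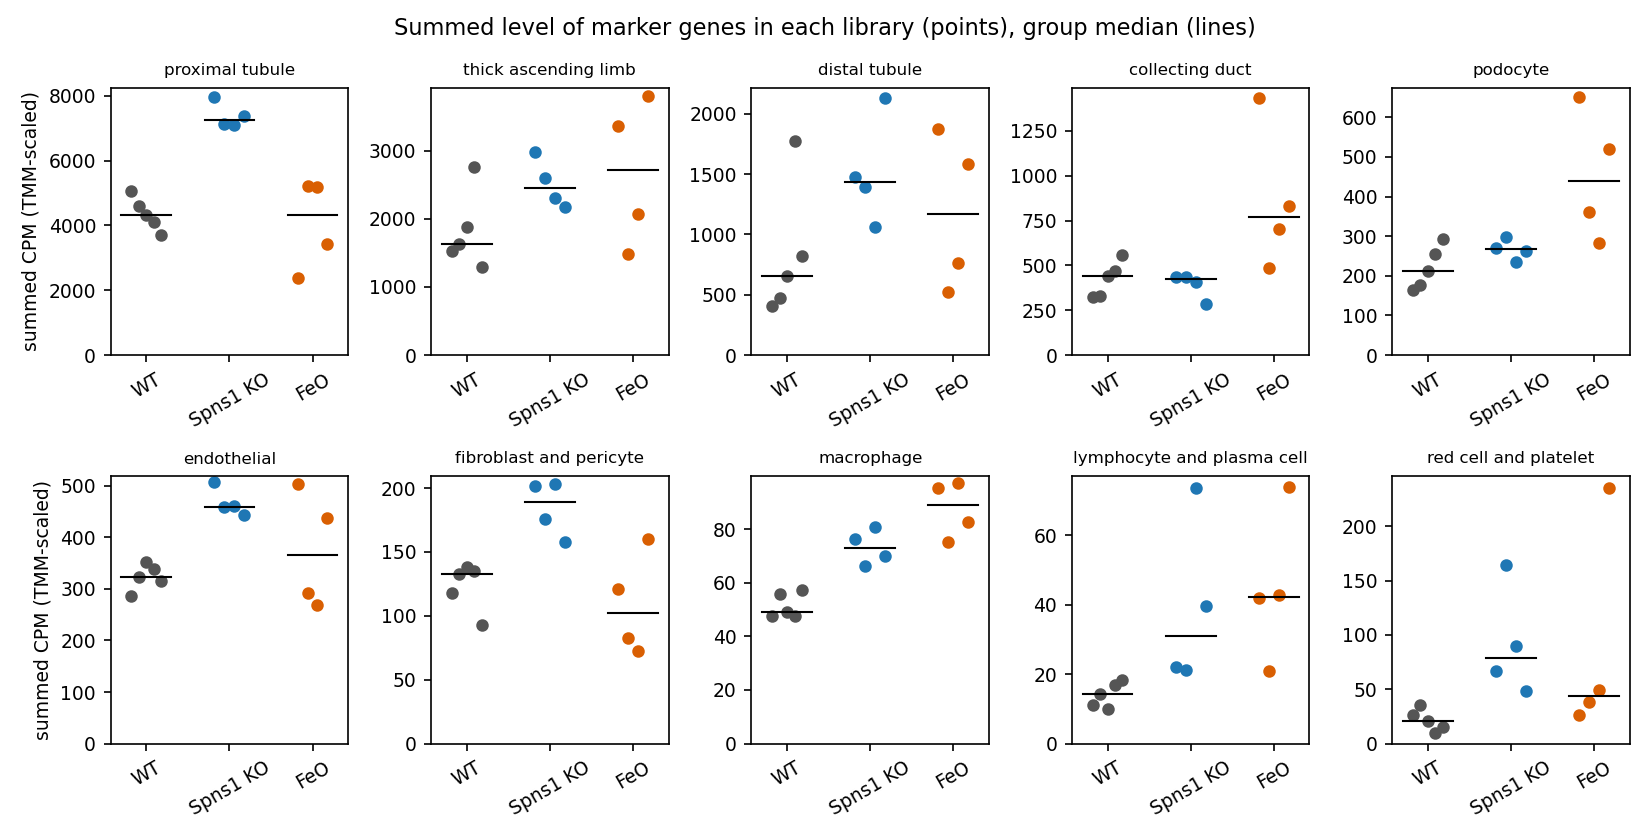
Summed level of each cell type's marker genes in CPM (vertical axis, from 0) in each library (points), with the group median as a line. Proximal tubule, endothelial, and fibroblast and pericyte sums were higher in all 4 libraries labelled Spns1 KO than in all 5 WT libraries, whereas macrophage sums were higher than WT in both other groups.

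All 3 Id genes were upregulated in the libraries labelled Spns1 KO, whereas none was upregulated in FeO and Id1 was downregulated there. Smad7 was downregulated in FeO, and the iron sensors Aco1, Ireb2 and Fbxl5, Tfr2, Bmp6 and Smad6 passed the limits in no comparison. A gene was called at an adjusted p under 0.05 by the quasi-likelihood test of edgeR, adjusted after Benjamini and Hochberg over all 16468 genes, together with a log2 fold change beyond 0.5 either way. In Spns1 KO against WT, 3 of the 10 members were upregulated and 0 downregulated, beside 21.6% of all genes called, 14% up and 7.55% down. In FeO against WT, 0 were upregulated and 2 downregulated, beside 42.2% of all genes called, 22.4% up and 19.7% down. In Spns1 KO against FeO, 2 were upregulated and 0 downregulated, beside 14.9% of all genes called, 6.76% up and 8.1% down. The share of 2 in 10 downregulated in FeO was thus close to that over all genes. Each of these counts of 0 was also 0 at an unadjusted p under 0.05 in edgeR and with DESeq2. The median log2 fold change of the 10 members was 0.353, -0.0276 and 0.307 in these comparisons, and that of all genes was -0.0452, -0.0111 and 0.0284. The first 2 comparisons use the same WT libraries and are not independent of each other.

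**Figure D2:**
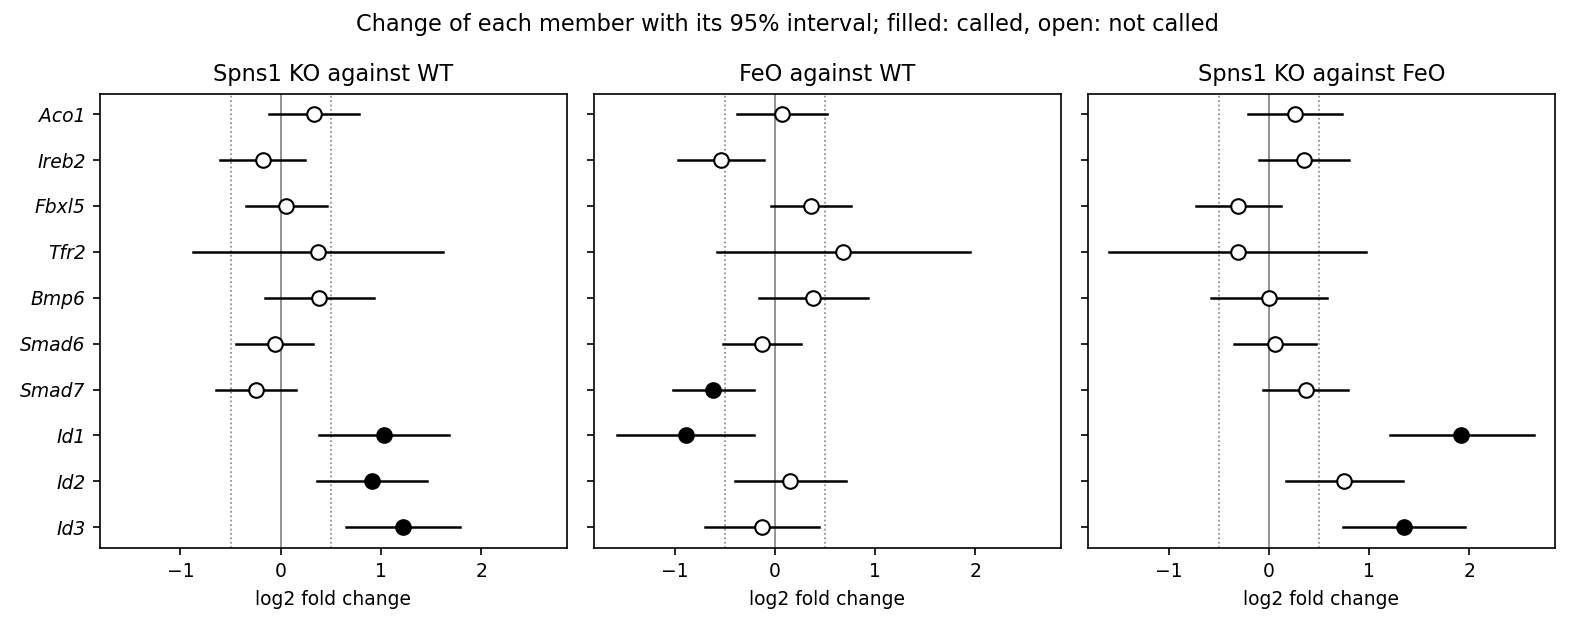
Log2 fold change of each member (horizontal axis) with its 95% interval in each of the 3 comparisons; filled points were called, open points were not, and dotted lines mark the limits of 0.5 either way. The Id genes lie to the right in Spns1 KO against WT, Id1 and Smad7 lie to the left in FeO, and Id1 and Id3 lie to the right in Spns1 KO against FeO.

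The ID proteins are helix-loop-helix proteins without a DNA-binding region that pair with E proteins and keep them off DNA. Id1 (chromosome 2 from 152736251 to 152737410 of GRCm38, plus strand) was 14.2, 24.1, 21.1 and 17.3 CPM in Spns1 KO 1 to 4, in WT 1 to 5 it was 9.91, 10.7, 7.65, 6.01 and 12.5 CPM, and in FeO 1 to 4 it was 2.49, 3.5, 4.06 and 10.2 CPM. Every library labelled Spns1 KO lay above every WT and every FeO library, and 3 of the 4 FeO libraries lay below every WT library, with FeO 4 inside the WT range. Over all genes, 13.1% lay wholly above WT in Spns1 KO and 8.25% wholly above FeO. Id1 was the only member with groups that did not overlap, in these comparisons. The means were 19.2 ± 4.31 CPM in Spns1 KO (SD, n = 4), 9.37 ± 2.57 CPM in WT (SD, n = 5) and 5.05 ± 3.46 CPM in FeO (SD, n = 4). Id1 rose 2.04-fold in Spns1 KO against WT (log2 fold change 1.03, standard error 0.33, adjusted p = 0.0357) and fell 1.86-fold in FeO (log2 fold change -0.89, standard error 0.35, adjusted p = 0.0463). Between the models the difference was 3.8-fold, with Spns1 KO higher (log2 fold change 1.92, standard error 0.37, adjusted p = 0.00566), the 121st highest of the 16468 log2 fold changes.

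The 2 calls of Id1 against WT were near the limit. The rise in Spns1 KO was called in 7 of 13 fits that each left out 1 library, with log2 fold changes from 0.9 (without Spns1 KO 2, adjusted p = 0.109) to 1.18, and it was lost without Spns1 KO 2, Spns1 KO 3, or any of WT 1 to 4. It was also lost without TMM factors (0.9, adjusted p = 0.0627) and after each library was corrected for trends with transcript length and GC content (0.6, adjusted p = 0.168). The fall in FeO was called in 3 of those 13 fits and ranged from -1.46 without FeO 4 (adjusted p = 0.00155) to -0.66 without FeO 1 (adjusted p = 0.139). It was lost with all genes tested (-0.83, adjusted p = 0.0608) and with only the FeO and WT libraries fitted (-0.89, adjusted p = 0.0663). FeO 4, the FeO library with the highest Id1, also had the highest marker sums of its group for red cells and platelets (235 CPM, against 26.3 to 49.3 CPM in the other 3), lymphocytes and plasma cells (73.9 CPM), fibroblasts and pericytes (160 CPM) and the thick ascending limb (3803 CPM). FeO 1, with the lowest Id1, was highest for distal tubule (1878 CPM), collecting duct (1435 CPM), podocytes (651 CPM) and endothelium (503 CPM). The proximal tubule sum was highest in FeO 2 (5220 CPM) and the macrophage sum in FeO 3 (97.4 CPM). The difference between the models was called in all 13 of these fits (log2 fold changes from 1.71 to 2.51) and under all 6 other settings (1.86 to 2.01). Without the library labelled Spns1 KO 4, the log2 fold change was 1.08 against WT and 1.97 against FeO.

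Id3 and Id2 moved with Id1 in the libraries labelled Spns1 KO. Their promoters are shown because the Id genes are known direct targets of BMP-activated SMADs, which bind GGCGCC and GTCT elements. The sequences are the 250 bases before the RefSeq start of transcription, 5′ to 3′ on the gene's strand, in GRCm38.p6, with capitals at every GGCGCC and at every GTCT on either strand (read as AGAC on the other strand). Id3 is chr4:136143572-136143821 on the plus strand, and Id2 is chr12:25096093-25096342 on the minus strand.
Id3: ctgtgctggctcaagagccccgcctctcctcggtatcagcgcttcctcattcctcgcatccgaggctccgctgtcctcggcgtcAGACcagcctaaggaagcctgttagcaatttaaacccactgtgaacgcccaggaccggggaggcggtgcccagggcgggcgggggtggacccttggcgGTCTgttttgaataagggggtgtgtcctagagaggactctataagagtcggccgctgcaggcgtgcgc
Id2: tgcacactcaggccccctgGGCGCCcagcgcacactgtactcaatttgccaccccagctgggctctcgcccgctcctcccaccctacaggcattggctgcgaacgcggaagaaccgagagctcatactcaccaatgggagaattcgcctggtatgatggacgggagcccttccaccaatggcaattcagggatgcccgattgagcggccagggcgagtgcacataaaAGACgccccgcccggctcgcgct
The Id3 window holds 2 GTCT and 0 GGCGCC, and the Id2 window holds 1 of each, the GGCGCC 225 bases before the start. Of 32851 RefSeq promoter windows of 250 bases, 82.9% hold GTCT and 9.59% hold GGCGCC on either strand, so that the GTCT matches do not mark these genes out. The joint element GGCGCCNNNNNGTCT is in 0.07% of windows and in neither of these. Elements outside the 250 bases were not searched, and both windows lie inside the gene spans given below, so its absence speaks for these windows only. The promoter table covered 7 of the 10 members, without Id1, Smad7 and Fbxl5, and Id2 was the only one of the 7 with a GGCGCC. A match describes the letters of the window and is not a measured binding site.

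Id3 (chromosome 4 from 136143497 to 136145755, plus strand) was 30.1, 52.3, 38.6 and 16.8 CPM in Spns1 KO 1 to 4, against 13.7, 16.4, 11.5, 13.7 and 18.7 CPM for WT 1 to 5, and 9.87, 10.8, 12 and 21.4 CPM for FeO 1 to 4. The first 3 libraries labelled Spns1 KO lay above every WT and FeO library, and the fourth lay inside both ranges. Id3 rose 2.33-fold against WT (log2 fold change 1.22, standard error 0.29, adjusted p = 0.00803), the largest change of any member in that comparison. Against FeO it was 2.55-fold higher in Spns1 KO (log2 fold change 1.35, standard error 0.31, adjusted p = 0.0119). FeO and WT overlapped, with means of 13.5 ± 5.35 CPM (SD, n = 4) and 14.8 ± 2.77 CPM (SD, n = 5) and a log2 fold change of -0.13 (95% interval -0.7 to 0.44). The rise against WT was called in all 13 fits without 1 library (0.95 to 1.45) and reached 1.45 without the library labelled Spns1 KO 4. It missed the limit with the length and GC trend taken out (0.78, adjusted p = 0.0527). Against FeO the call of Id3 was kept in all 13 of these fits and under all 6 other settings.

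Id2 (chromosome 12 from 25093799 to 25097140, minus strand), the most abundant of the 3 Id genes per kilobase, was 203, 289, 192 and 87.6 CPM in Spns1 KO 1 to 4. In WT 1 to 5 its level was 117, 98.7, 88.9, 89.3 and 120 CPM, and in FeO 1 to 4 its level was 77.4, 110, 174 and 96.8 CPM. The same 3 libraries labelled Spns1 KO stood above all others, and Spns1 KO 4 lay below every WT library. The log2 fold change against WT was 0.91 (standard error 0.28, adjusted p = 0.0306), a rise of 1.88-fold. This call was lost in 6 of the 13 fits without 1 library (Spns1 KO 1, 2 or 3, or WT 2, 3 or 4), most without Spns1 KO 2 (0.65, adjusted p = 0.134), and the value was 1.15 without Spns1 KO 4. Against FeO the difference of 0.75 missed the limit (standard error 0.3, adjusted p = 0.0967), but passed it without Spns1 KO 4 (1, adjusted p = 0.0217), without FeO 3 (1.03, adjusted p = 0.0431) and with the length and GC trend taken out (0.86, adjusted p = 0.0433). In FeO against WT the log2 fold change was 0.15 (95% interval -0.4 to 0.71), and FeO 3 alone lay above the WT range.

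The rise of the Id genes went with the proximal tubule, endothelial, fibroblast, macrophage, lymphocyte and red cell marker sums given above, which were all higher in every library labelled Spns1 KO than in every WT library. The part of those cells in the result was not tested. In Spns1 KO 1 to 4 the red cell and platelet sums of 66.8, 164, 90.1 and 48.5 CPM had the same order as Id3. The library labelled Spns1 KO 4 had the lowest Id2 and Id3 of its group together with the lowest endothelial (443 CPM) and fibroblast and pericyte (158 CPM) sums. Id1 went otherwise: it was lowest of that group in Spns1 KO 1 (14.2 CPM), which had the highest endothelial sum (507 CPM). FeO 1, however, had the second highest endothelial sum of all libraries, 503 CPM, with the lowest Id1 of all, 2.49 CPM.

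**Figure D3:**
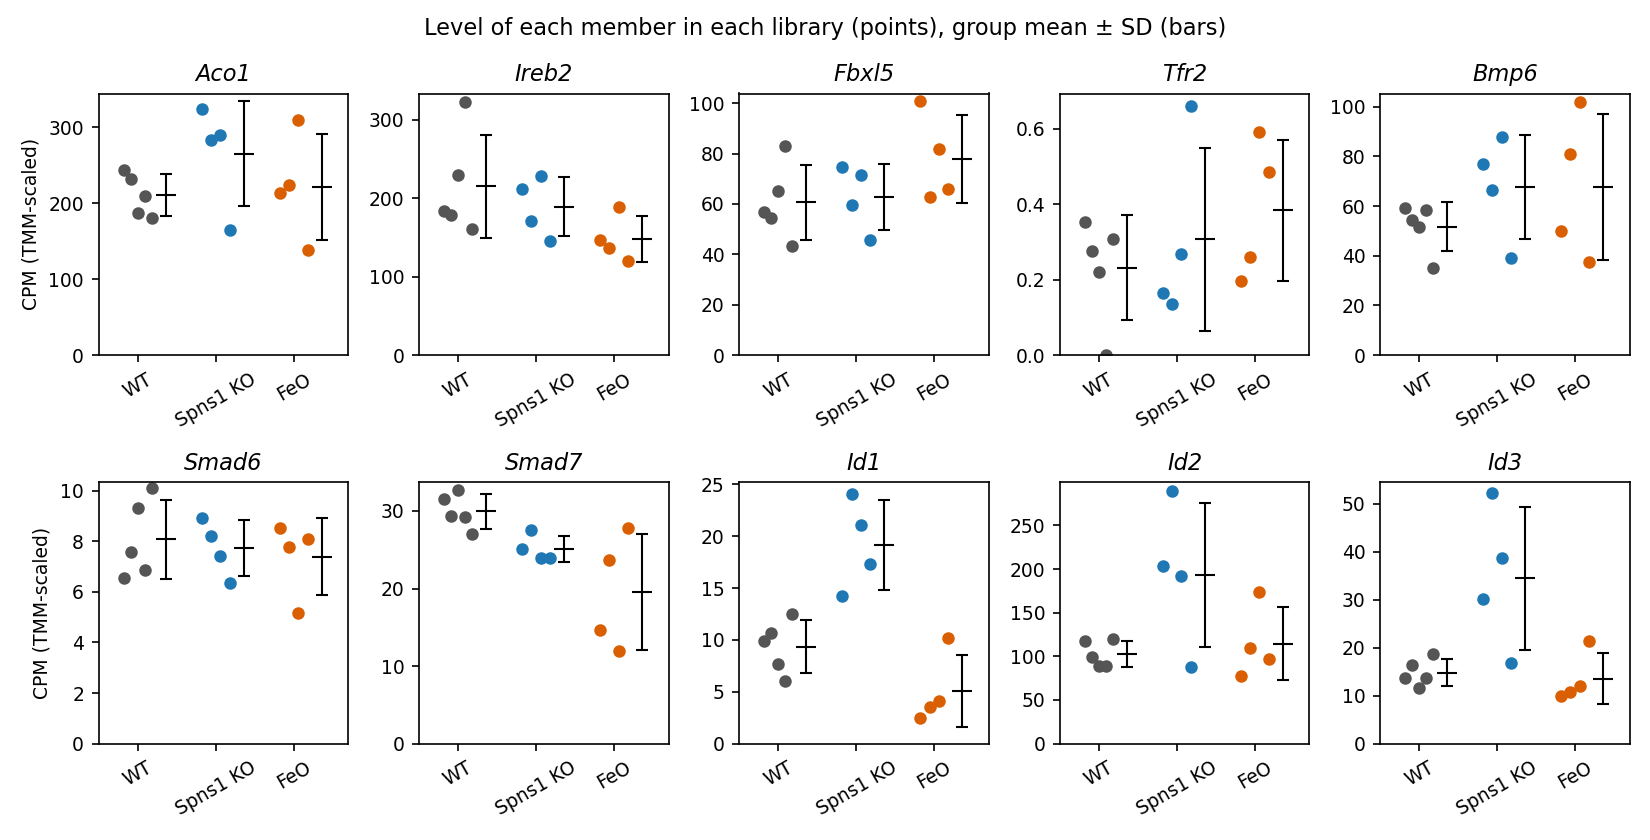
Level of each member in CPM (vertical axes, from 0, scaled per gene) in every library (points), with the group mean ± SD as bars. Id1 separates the 4 libraries labelled Spns1 KO from all others, in Id2 and Id3 the fourth of them falls back among the WT libraries or below them, and the Tfr2 axis ends below 1 CPM.

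Among 6 other BMP-SMAD targets, 0 were upregulated in Spns1 KO and 0 downregulated, and in FeO 0 rose and 2 fell. The counts of 0 were the same at an unadjusted p under 0.05 in edgeR and with DESeq2. Counts of pathway genes here and below stand beside 14% of all genes up and 7.55% down in Spns1 KO. In FeO these shares were 22.4% and 19.7%. Id4, the remaining member of the ID family, was not called either, at -0.09 (Spns1 KO) and 0.01 (FeO) on the log2 scale. Those that fell in FeO were Runx2, a skeletal transcription factor (-1.24, adjusted p = 0.00166), and Msx1, a homeobox gene of under 1 CPM in each group mean (-1.07, adjusted p = 0.0247). Runx2 also differed between the models, 1.25 higher in Spns1 KO on the log2 scale (adjusted p = 0.00847), with 2.43 to 4.69 CPM there and 0.941 to 1.57 CPM in FeO. Of the 3 E proteins that ID proteins bind, Tcf12 fell in Spns1 KO (-0.53, adjusted p = 0.0191), and Tcf12 and Tcf4 fell in FeO (-0.67 and -0.83, adjusted p = 0.00268 and 0.00133), whereas 0 of the 3 were called in either with the length and GC trend taken out. Genes outside the 10 largest called changes per comparison are named in these counts after their values were seen.

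The inhibitory SMADs are themselves BMP targets and damp the signal, SMAD7 by blocking and degrading type I receptors of both the BMP and the TGF-beta branch, SMAD6 mainly in the BMP branch. Smad7 (chromosome 18 from 75367529 to 75395935) was 25.1, 27.5, 23.9 and 23.9 CPM in Spns1 KO 1 to 4, with 31.5, 29.3, 32.7, 29.2 and 27 CPM for WT 1 to 5, and 14.6, 23.7, 11.9 and 27.8 CPM for FeO 1 to 4. FeO 1 and FeO 3 stood far below every WT library and FeO 2 somewhat below, whereas FeO 4 lay inside the WT range. Smad7 fell 1.54-fold in FeO (log2 fold change -0.62, standard error 0.21, adjusted p = 0.0245). The call was lost without WT 3, FeO 1 or FeO 3 (-0.57, -0.49 and -0.44) and with the length and GC trend taken out (-0.48, adjusted p = 0.0498). In Spns1 KO, 3 of 4 libraries lay below every WT library, yet the log2 fold change of -0.25 was not called (95% interval -0.65 to 0.15, adjusted p = 0.383). Smad6 (chromosome 9 from 63953076 to 64022059) was 6.35 to 8.91 CPM in Spns1 KO, 6.53 to 10.1 CPM in WT and 5.17 to 8.53 CPM in FeO, with log2 fold changes of -0.06 (95% interval -0.45 to 0.32) and -0.13 (-0.52 to 0.26). The upper ends of both intervals lie under the limit of 0.5.

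None of the SMAD transducers and other inhibitors within the cell was upregulated in either model, nor at an unadjusted p under 0.05 or with DESeq2, although 1 of the inhibitors was upregulated in FeO with the length and GC trend taken out. Of 4 transducers, 1 fell in Spns1 KO (Smad4, -0.7, adjusted p = 0.00491) and 3 in FeO (Smad1, -0.89, Smad5, -0.87, and Smad9, -1.91). Smad9, a receptor-activated SMAD of the BMP branch, had 1.22 to 2.14 CPM in FeO, 5.37 to 7.37 CPM in WT and 4.11 to 6.91 CPM in Spns1 KO. Its adjusted p was 0.000313 in FeO against WT, and the difference between the models was 1.56 on the log2 scale (adjusted p = 0.00238). Of 6 intracellular inhibitors, 1 fell in Spns1 KO and 3 in FeO. Skil, which encodes the SMAD corepressor SnoN, fell in both (-0.6 and -1.31, adjusted p = 0.024 and 0.000393) and further in FeO (difference 0.71, adjusted p = 0.0216, a call lost without Spns1 KO 4, FeO 1 or FeO 3 and at 0.45 with the length and GC trend taken out). Under that setting 0 of the 6 inhibitors were called in Spns1 KO.

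Bmp6 (chromosome 13 from 38345107 to 38500302, plus strand) was 77.1, 66.5, 88 and 38.9 CPM in Spns1 KO 1 to 4, with 59.4, 54.3, 51.7, 58.5 and 35 CPM for WT 1 to 5, and 49.9, 80.9, 102 and 37.4 CPM for FeO 1 to 4. The first 3 libraries labelled Spns1 KO and 2 of the 4 FeO libraries lay above every WT library, and the rest lay inside the WT range. The log2 fold change was 0.38 in both models, with 95% intervals of -0.16 to 0.93 in each and adjusted p of 0.33 and 0.272, so that a rise of Bmp6 was not shown, while the upper ends of the intervals lie well above the limit of 0.5. Between the models the difference was 0 (95% interval -0.58 to 0.58). The span of Bmp6 overlaps Txndc5 on the other strand, and the sources used here do not say that counting used strand.

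Of 7 other BMP ligand genes, 2 rose and 1 fell in Spns1 KO, and 0 were called in FeO by edgeR, against 1 (Bmp4, downward) at an unadjusted p under 0.05 and 1 with DESeq2. With the length and GC trend taken out, 1 rose and 1 fell in FeO. There 1 also fell without TMM factors and without WT 4, FeO 2 or FeO 4. Bmp7, the BMP best known for kidney development, was 32.1 to 54.8 CPM in Spns1 KO and 20.3 to 25.4 CPM in WT, without overlap, and rose by 0.84 on the log2 scale (standard error 0.17, adjusted p = 0.00342). Of all genes, 13.1% lay wholly above WT in Spns1 KO. FeO ranged from 19.4 to 28.3 CPM, and the difference between the models was 0.89 (adjusted p = 0.00756). Bmp1 also rose (0.54, adjusted p = 0.0358), although it encodes a procollagen proteinase rather than a ligand of BMP receptors, and Bmp3, a ligand that opposes other BMPs, fell (-0.71, adjusted p = 0.0127), with 0 ligand genes called down in Spns1 KO once the length and GC trend was taken out. Bmp4 differed between the models, 1.38 higher in Spns1 KO on the log2 scale (adjusted p = 0.0206, lost without Spns1 KO 2 or FeO 3 and with only the 2 groups fitted), while its log2 fold changes against WT, 0.52 and -0.86, were not called.

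Of 10 receptors and co-receptors, 1 rose and 4 fell in Spns1 KO, and 1 rose and 6 fell in FeO, where the shares of all genes that rose and fell were 14% and 7.55% in the former and 22.4% and 19.7% in the latter. With the length and GC trend taken out, 1 rose and 1 fell in Spns1 KO, and 1 rose and 2 fell in FeO. Bmpr1b, a type I BMP receptor, was 9.17 to 19.2 CPM in Spns1 KO, 22.2 to 36.6 CPM in WT and 12.9 to 22.4 CPM in FeO, with log2 fold changes of -1.3 (adjusted p = 0.00241) and -0.71 (adjusted p = 0.0289). The receptor that rose in both was Eng, endoglin (0.95 and 0.54), which is also 1 of the 10 endothelial markers. Among 11 secreted inhibitors and modulators, 2 rose and 1 fell in Spns1 KO, and 5 rose and 1 fell in FeO. Kcp, which enhances BMP signalling in kidney, was 13 to 18.3 CPM in Spns1 KO, 3.82 to 8.69 CPM in WT and 2.92 to 5.96 CPM in FeO, a log2 fold change of 1.23 against WT (adjusted p = 0.00244) and 1.73 against FeO (adjusted p = 0.00215). Bmper, at 7 to 45 counts per library, fell in Spns1 KO (-1.68, adjusted p = 0.00426). Chrdl1, a chordin-like antagonist, rose in both models (1.02 and 1.38). In FeO the antagonists Sostdc1 (1.99, adjusted p = 0.0027), Nog (1.98, adjusted p = 0.00696) and Grem1 (1.66, adjusted p = 0.0239) rose, the last a call lost without WT 1, WT 2, FeO 1 or FeO 3. Nog was low, with 4 to 9 counts per library in WT and 17 to 41 in FeO. Nbl1 also rose in FeO (1, adjusted p = 0.0052). The 1 modulator that fell there was Chrd (-1.06, adjusted p = 0.018), with means of 13.2 CPM in WT and 6.33 CPM in FeO. Without FeO 1 or FeO 4, 0 modulators were called down in FeO. Sostdc1 was 57.4 to 198 CPM in FeO and 11 to 50.2 CPM in Spns1 KO, and the difference of -1.7 was called (adjusted p = 0.0278), a call lost without Spns1 KO 2, Spns1 KO 4 or FeO 1 and with only the 2 groups fitted.

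**Figure D4:**
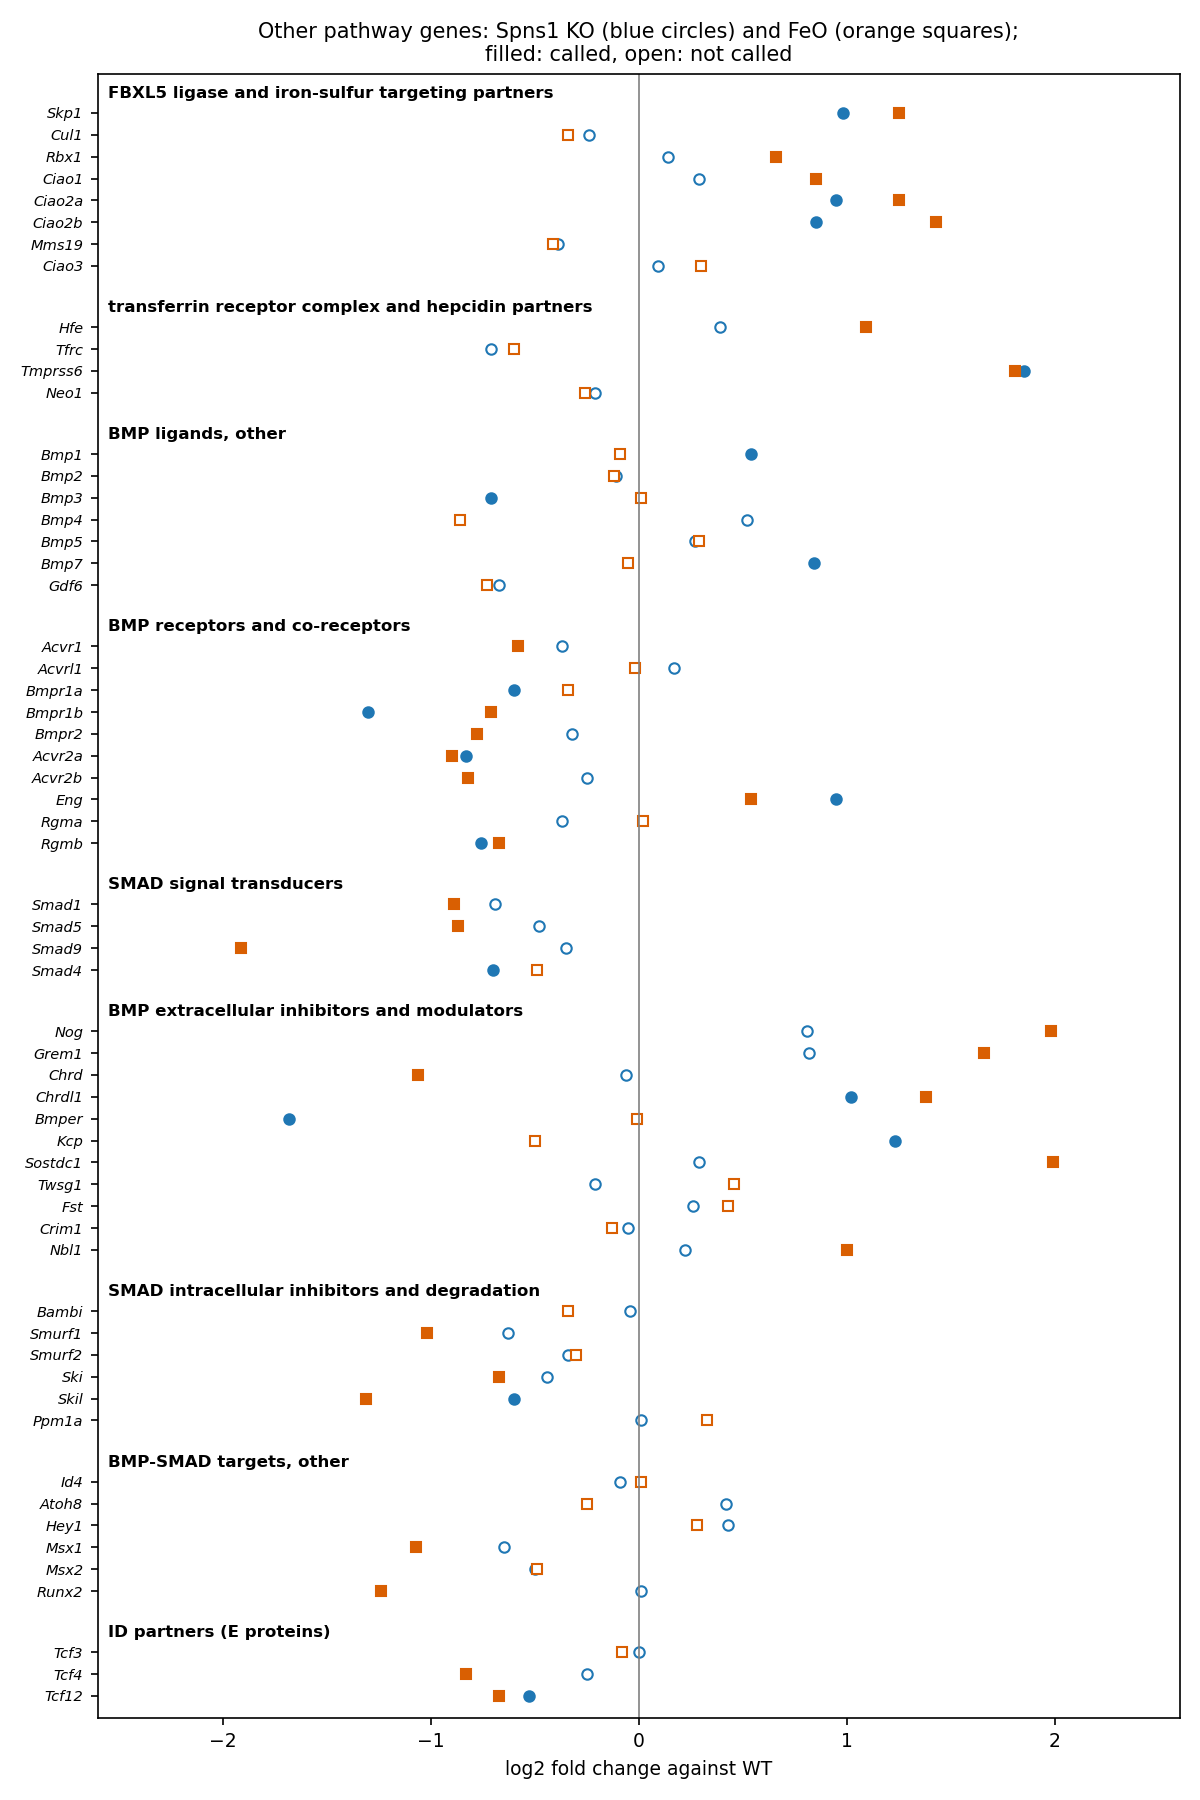
Log2 fold change against WT (horizontal axis) of the 59 other tested genes of the pathway, grouped by role, in Spns1 KO (circles) and FeO (squares), with filled symbols for called genes. Receptors, SMAD transducers and intracellular inhibitors lie mostly left of 0 here, before any length and GC trend is taken out, and the FBXL5 ligase and iron-sulfur targeting partners mostly right of it.

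Over these 59 genes, 9 rose and 9 fell in Spns1 KO (15.3% each, beside 14% and 7.55% of all genes). In FeO 13 rose and 17 fell (22% and 28.8%, beside 22.4% and 19.7%), and 8 were higher and 5 lower in Spns1 KO than in FeO (13.6% and 8.47%, beside 6.76% and 8.1%). Their median log2 fold changes were -0.0854, -0.253 and 0.0391. With the length and GC trend taken out, 7 rose and 3 fell in Spns1 KO, and the balance in FeO turned to 15 up and 10 down. Between the models the counts were then 6 higher and 6 lower. Hamp, the hepcidin gene, and Hjv, the gene of a BMP co-receptor, were below the filter on low counts.

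None of the iron sensors was called in any comparison. Aco1 (chromosome 4 from 40143081 to 40198338, plus strand), the most abundant member per kilobase in WT, was 324, 283, 290 and 165 CPM in Spns1 KO 1 to 4, 180 to 244 CPM in WT and 139 to 310 CPM in FeO. Spns1 KO 1 to 3 stood above every WT library and Spns1 KO 4 below every one. The log2 fold changes were 0.33 in Spns1 KO (95% interval -0.12 to 0.78, adjusted p = 0.302) and 0.07 in FeO (-0.38 to 0.52, adjusted p = 0.813), and without Spns1 KO 4 the former was 0.5. Ireb2 (chromosome 9 from 54863789 to 54912530, plus strand) was 147, 137, 188 and 120 CPM in FeO 1 to 4, against 183, 178, 229, 323 and 161 CPM for WT 1 to 5, and 145 to 228 CPM for Spns1 KO. In FeO 3 of 4 libraries lay below every WT library, and the log2 fold change of -0.54 narrowly missed the limit (standard error 0.22, adjusted p = 0.0562). With DESeq2 it was called (-0.52, adjusted p = 0.046), as it was without TMM factors (-0.61, adjusted p = 0.0282), but its direction turned with the length and GC trend taken out (0.11, adjusted p = 0.697). The Ireb2 transcript, at 5770 bases and 39% GC, is the longest and lowest in GC of the members.

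Fbxl5 (chromosome 5 from 43744615 to 43821638, minus strand) was 101, 62.6, 81.8 and 65.9 CPM in FeO 1 to 4, 43.4 to 83.2 CPM in WT and 45.8 to 74.7 CPM in Spns1 KO. FeO 1 alone lay outside the WT range, and the span of Fbxl5 overlaps Bst1 on the other strand. On the log2 scale it differed by 0.36 in FeO (standard error 0.2, adjusted p = 0.157) and 0.05 in Spns1 KO (95% interval -0.35 to 0.46), and the former was called without WT 4 (0.52, adjusted p = 0.0425) and with the length and GC trend taken out (0.67, adjusted p = 0.0164). Of 8 partners of the FBXL5 ligase and of the machinery that inserts iron-sulfur clusters, 3 rose in Spns1 KO, 5 rose in FeO and 0 fell in either by edgeR or DESeq2, with 1 (Cul1, in FeO) lower at an unadjusted p under 0.05. Over all genes, 14% rose and 7.55% fell in Spns1 KO, and 22.4% rose and 19.7% fell in FeO. Skp1, which links F-box proteins to the ligase, was 103 to 225 CPM in Spns1 KO, 126 to 284 CPM in FeO and 74.8 to 95.3 CPM in WT, with log2 fold changes of 0.98 and 1.25 (adjusted p = 0.00817 and 0.000931). Ciao2a, which takes part in maturing ACO1 and stabilises IREB2, rose by 0.95 and 1.25 (adjusted p = 0.00371 and 0.000494), with WT at 15.8 to 21.7 CPM and every other library above it. Of all genes, 13.1% lay wholly above WT in Spns1 KO and 16.9% in FeO. Ciao2b, which serves other iron-sulfur proteins, rose by 0.85 and 1.43, the first a change not called with the length and GC trend taken out (0.26). The scaffold of the ligase, Cul1, was not called (-0.24 and -0.34).

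Tfr2 (chromosome 5 from 137569840 to 137587481, plus strand), which senses iron-bound transferrin in hepatocytes and erythroid cells, was near the limit of detection, with 0 to 28 counts per library. It was 0.135 to 0.661 CPM in Spns1 KO, 0 to 0.354 CPM in WT and 0.197 to 0.592 CPM in FeO. The count of 0 in WT 4 allows up to 0.106 CPM (3 counts, for counting error alone). The groups overlapped, the 95% intervals of the log2 fold changes ran from -0.87 to 1.62 and from -0.58 to 1.95, and a difference was not detectable at this depth. Of 4 partners of the transferrin receptors and of hepcidin, 1 rose in Spns1 KO and 2 in FeO, and 0 fell by edgeR, against 1 (Tfrc) in each at an unadjusted p under 0.05 and 1 in Spns1 KO with DESeq2. Hfe, which binds both transferrin receptors, rose in FeO (1.09, adjusted p = 0.000875) and was lower in Spns1 KO than in FeO (-0.69, adjusted p = 0.0381, called in 6 of the 13 fits without 1 library), and Tmprss6, a protease that restrains BMP signalling in liver, had 0 to 31 counts and was called in both (1.85 and 1.81), in 3 and 8 of the 13 fits without 1 library. Tfrc, the transferrin receptor, had log2 fold changes of -0.71 and -0.6 that missed the limit (adjusted p = 0.0574 and 0.0672).

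Per kilobase of the longest coding transcript, the members ranged in WT from 55 CPM for Aco1 through 52.2 for Id2, 37.2 for Ireb2, 14.4 for Bmp6, 14.3 for Fbxl5, 11.6 for Id3, 8.08 for Id1, 6.99 for Smad7 and 2.72 for Smad6 to 0.0756 for Tfr2. Neighbours in this order overlapped over the WT libraries except Ireb2 over Bmp6, Smad7 over Smad6 and Smad6 over Tfr2. In Spns1 KO, Id2 came first at 98.1 CPM per kilobase, ahead of Aco1 at 69.2, and Id3 rose to the fourth place at 27. In FeO, Id1 at 4.36 came below Smad7 at 4.56, with overlapping ranges.

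The genes whose log2 CPM over the 13 libraries was most like that of Id1 were Snai2 (Pearson r = 0.954), Ccdc25 (0.953) and Snai1 (0.941). Snai1 and Snai2 are zinc-finger repressors of the Snail family. Those most like Id3 were Ccrl2 (0.949), Nfs1 (0.946), the mitochondrial cysteine desulfurase of iron-sulfur cluster assembly, and Ccl21a (0.928). Likeness to Id2 was lower, with Shf first at 0.887. Cldn2, a claudin of the proximal tubule, was most like Bmp6 (0.951), Glud1 most like Aco1 (0.964), Hspa13 most like Fbxl5 (0.974), Marchf6 most like Ireb2 (0.961), and Scarf1 most like Smad7 (0.968). These correlations describe 13 libraries that share groups and depth, and each gene was picked as the highest of all tested.

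**Figure D5:**
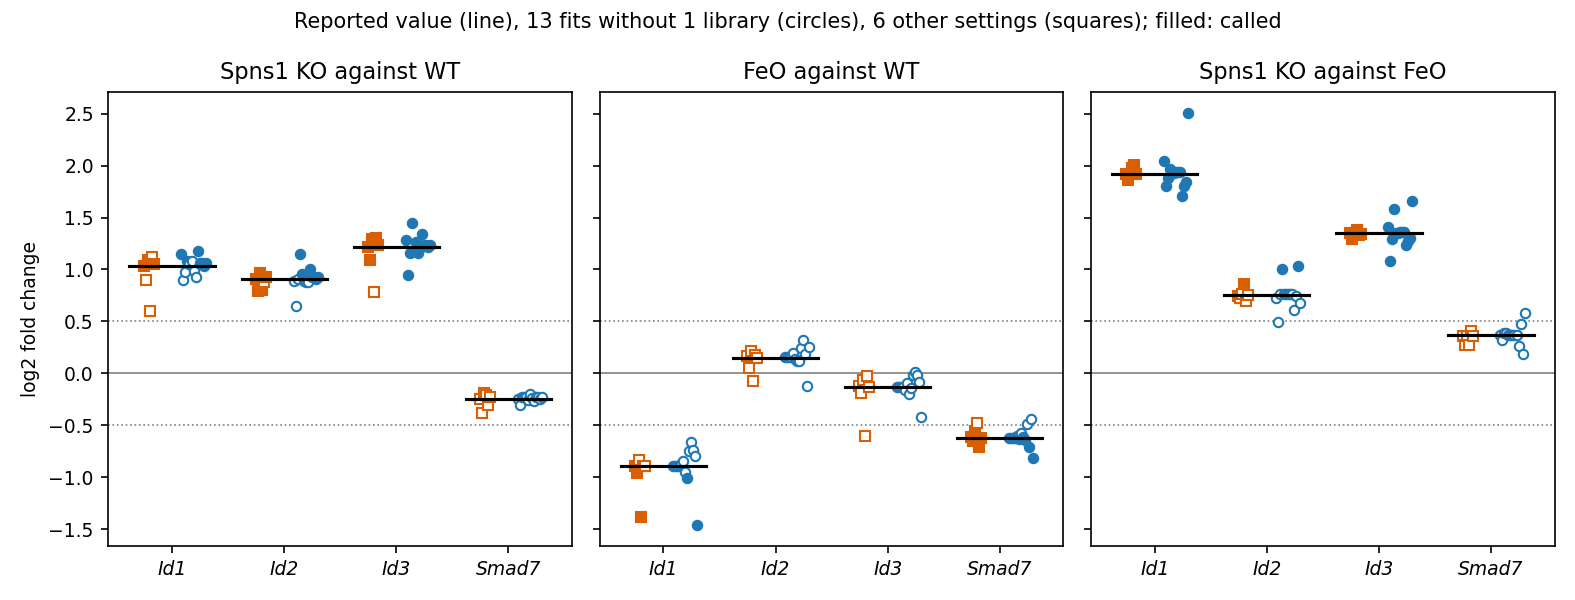
Log2 fold change (vertical axis) of Id1, Id2, Id3 and Smad7 in each comparison: lines give the reported value, circles the 13 fits without 1 library, squares the 6 other settings, and filled symbols were called. In Spns1 KO against FeO every symbol of Id1 and Id3 is filled, whereas for Id1 in FeO against WT most are open.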

How the data were processed

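RNA tagged with 4-thiouracil was biotinylated, bound to streptavidin, enriched for poly-A and sequenced from both ends (TruSeq, NovaSeq). The authors deposited whole-number estimated counts per gene symbol for 13 libraries, without normalization. The submitters' processing notes name bcl2fastq 2.19, kallisto 0.44.0 and GRCm38, whereas the methods describe alignment with STAR and counting with HTSeq, so which step made the counts is not settled. Groups followed the sample titles. Counts were fitted with edgeR 4.0.16 (filterByExpr, TMM, quasi-likelihood) in 1 fit of all libraries, which share 1 estimate of the spread; the study used DESeq2 at the same limits. Intervals are the log2 fold change ± 1.96 standard errors, log2 CPM used a prior count of 2, and levels are TMM-scaled CPM. The code was tested on simulated counts. Levels per kilobase used the longest coding transcript of GENCODE (GRCm38), and promoters came from RefSeq. Pathway genes were named when among the 10 largest called changes of a comparison. Some others were named beside the counts of their list, after their values were seen. The 3 genes most like each member were those of highest Pearson r. Alternatives were DESeq2 1.42.0, library totals, no filter, removal of a length and GC trend (mgcv 1.9.3, with values for 98.3% of genes), a replicate block, only the 2 groups compared, and leaving out each library. Replicate numbers were not taken as pairs. The members, lists and tests were chosen with earlier results of these data known. Of 71 listed pathway symbols, 65 had a row and 59 passed the filter, and 1 further item is not reported here. No pair of libraries was alike enough to be 1 library, with at most 1.54% of genes at equal counts.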

Additional observations from a re-analysis of the deposited data

Results flagged for a closer look

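The effects of the models on 2 members differed in the direct test of Spns1 KO against FeO, in a fit where the WT libraries share the filter, the scaling and the estimate of the spread. For Id1 the log2 fold change was 1.92, and all 4 libraries labelled Spns1 KO lay above all 4 FeO libraries. For Id3 it was 1.35, and 3 of the 4 lay above all FeO libraries. The proximal tubule, endothelial, fibroblast, macrophage, lymphocyte and red cell marker sums were higher in the libraries labelled Spns1 KO than in WT. Against FeO, the proximal tubule sums were higher in every library labelled Spns1 KO (7115 to 7979 CPM, against 2392 to 5220 CPM). Collecting duct sums were lower in every library labelled Spns1 KO (286 to 437 CPM, against 484 to 1435 CPM). The other sums named here overlapped between these 2 groups. Among them the medians for macrophages (73.1 against 89.2 CPM) and lymphocytes (30.9 against 42.4 CPM) were lower in Spns1 KO, and the rest higher. The part of these cells in the differences was not tested. Over the 30 groups of member values examined, 0 held a library that stood apart by Dixon's test.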

How the results depend on the processing

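The calls of Id1 and Id3 between Spns1 KO and FeO were kept in every fit. Against WT, the calls of Id1, Id2 and Smad7 were lost without some single libraries, whereas that of Id3 in Spns1 KO was kept without any 1 library. Members called in Spns1 KO against WT numbered 3, against 1 without the length and GC trend, 1 with the replicate block and 1 to 3 without 1 library. In FeO against WT they numbered 2, against 1 with all genes tested, 1 with only the 2 groups compared and 0 to 3 without 1 library. Genes called in Spns1 KO against WT ranged from 2035 (without Spns1 KO 3) to 5680 (without Spns1 KO 4), and those in Spns1 KO against FeO were 1040 with only these groups and 1181 to 3087 without 1 library. Other pathway genes called were 10 in Spns1 KO against WT with the trend removed, 6 in Spns1 KO against FeO with only these groups, and 7 to 18 there without 1 library. Without TMM factors the median of all genes moved by -0.131 in Spns1 KO against WT, and the share of calls that were up went from 65% to 45.5%, in FeO from 53.2% to 48.4% and between the models from 45.5% to 33.9%.

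None of the 7 calls of members described above changed sign under any alternative. Against WT in Spns1 KO, Ireb2 was 0.26 with the trend removed and, without 1 library, -0.28 to 0.03 (WT 4). Fbxl5 there was -0.07 without TMM factors, -0.06 with the replicate block and -0.04 to 0.21 without 1 library, below 0 without Spns1 KO 1, Spns1 KO 3 or WT 5. Without 1 library Tfr2 was -0.34 (Spns1 KO 4) to 0.61, and Smad6 was 0.02 with the replicate block and -0.14 to 0.05, above 0 without Spns1 KO 4, WT 3 or WT 5. In FeO, Aco1 was -0.01 without TMM factors, -0.04 with the replicate block and -0.13 (without FeO 3) to 0.27 without 1 library. With the trend removed, Ireb2 was 0.11 and Id2 -0.07. Without 1 library Smad6 was -0.2 to 0.01 (FeO 3), Id2 -0.12 (FeO 3) to 0.32 and Id3 -0.42 to 0.01 (FeO 1). Between the models Smad6 was -0.03 without TMM factors, -0.05 with the trend removed and -0.07 (FeO 3) to 0.15 without 1 library, also below 0 without Spns1 KO 1. Causes were not tested.

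The replicate numbers carried no label of pairing, and 4 of 12 same-numbered pairs correlated above 0.1 (from -0.296 to 0.256), with 3 of 13 libraries nearest to their own number. With the replicate block, Id1 (1.12, adjusted p = 0.0572) and Id2 (0.88, adjusted p = 0.0581) in Spns1 KO and Id1 in FeO (-0.89, adjusted p = 0.0851) were not called, and Ireb2 in FeO was (-0.63, adjusted p = 0.048). Depth limits Tfr2, at 0 to 28 counts.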
